A study of Mus musculus with 2 samples.

Results

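The nuclei described here held transcripts of mitosis, and they were chosen by their counts of 10 genes that act in it. A nucleus was taken where at least 4 of Tpx2, Knl1, Top2a, Nusap1, Anln, Prc1, Kif11, Cenpp, Cit and Ccnf had a UMI (unique molecular identifier, which stands for 1 captured RNA molecule) and where these genes together held at least 0.2% of its UMIs. This rule selected 705 of the 9586 nuclei that passed the filter, or 7.35%. They came from single-nucleus RNA sequencing of frozen colon in 2 libraries, 408 of 4884 nuclei in the WT library and 297 of 4702 in the HIF-1α KO library. The HIF-1α KO mice were Ncr1cre+ Hif-1αfl+/fl+, so that the promoter of Ncr1, which encodes NKp46, drives Cre and the deletion is aimed at NKp46-expressing innate lymphoid and NK cells, not at the crypt epithelium. Mice of both genotypes were 8 to 12 weeks old and went through 4 cycles of 2% dextran sodium sulfate (DSS, a polymer that injures the colon epithelium), each with 3 days of DSS and 4 days of recovery, until day 28. Tissue of 3 animals per genotype was pooled into 1 library. No difference between the genotypes could therefore be tested, and every interval below is an exact 95% interval that covers counting error only.

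In the colon, epithelial cells divide in the lower part of the crypt. Stem cells at the crypt base are maintained by Wnt and R-spondin signals, and their daughters, the transit-amplifying cells, divide several times while they move up and take on absorptive or secretory fates. A dividing cell first loads helicases onto its replication origins and copies its DNA in S phase, mostly with genes that E2F factors switch on. Through G2 and mitosis it makes the proteins that condense chromosomes, attach them to the spindle and cut the cell apart, and many of these genes are switched on late by B-Myb, FoxM1 and the MuvB complex.

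The libraries differed in depth, and this touched every comparison below. After the filter, member nuclei had a median of 2951.5 UMIs in the WT library and 4986 in the HIF-1α KO library, against 1975.5 and 4155 in all other nuclei. A rule that needs UMIs of 4 genes favours deep nuclei, so the gap within a library says nothing of RNA content. The UMIs of members summed to 1412301 UMIs in WT and 1760068 in HIF-1α KO. The filter keeps nuclei with 400 to 5000 detected genes and removed 9 WT and 62 HIF-1α KO nuclei above the upper limit, of which 1 and 8 met the rule. The libraries shared 3 barcodes, and 1 of them was a member in WT. The gene targeted in the HIF-1α KO mice, Hif1a, had 2284 UMIs in 1501 WT nuclei and 4699 UMIs in 2360 HIF-1α KO nuclei, whereas Ncr1 had 1 UMI in WT and 0 in HIF-1α KO. Counts over all nuclei, or in crypt nuclei, give no check of a deletion aimed at NKp46-expressing cells. In the member nuclei Hif1a was at 109 CPM (UMIs of the gene per 1000000 UMIs of the class of nuclei, interval 92.5 to 128) in WT and 135 CPM (119 to 154) in HIF-1α KO.

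The share of cycling nuclei was 8.35% in WT (interval 7.59 to 9.17) and 6.32% in HIF-1α KO (5.64 to 7.05). The HIF-1α KO share was lower by a log2 ratio of -0.40 (interval -0.62 to -0.18), without a replicate to set it against. After every nucleus was thinned to 1000 UMIs, which left out 63 HIF-1α KO nuclei and no WT nucleus, the shares were 3.05% and 2.22%, a log2 ratio of -0.46. With at least 5 of the 10 genes required, the shares came to 6.59% and 5.85% (log2 ratio -0.17, interval -0.41 to 0.06, which includes 0). With at least 3, they came to 10.1% and 6.51% (log2 ratio -0.63). The deeper library and the HIF-1α KO genotype are the same library here, so depth and genotype cannot be told apart.

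The values just inside and outside the limits show how the rule met this depth. Of the members, 86 in WT and 22 in HIF-1α KO had exactly 4 of the genes, with medians of 0.299% and 0.262% of UMIs on all 10. Just outside, 83 WT nuclei but 9 HIF-1α KO nuclei had 3 of the genes and at least 0.2% of their UMIs on them, at median depths of 1443 and 1949 UMIs. A further 78 and 86 nuclei had 4 or more of the genes but under 0.2% of their UMIs, at median depths of 5077.5 and 6997. All 10 genes were found together in 17 WT members and 54 HIF-1α KO members.

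The genes that chose the members are given as a description only. Their summed level was 3642 CPM in WT members and 4159.5 CPM in HIF-1α KO members, against 386 and 177 CPM in the other nuclei. In WT 52.9% of all UMIs of these genes lay in members, and in HIF-1α KO 65.5%. Top2a, which encodes the topoisomerase that untangles sister chromatids, was at 583 CPM (544 to 624) in WT and 665 CPM (627 to 704) in HIF-1α KO members. It had a UMI in 79.7% and 90.9% of them, and in 11.6% and 11.01% of the mesenchymal-marked nuclei, whose median depths were 1888 and 2645 UMIs. With each nucleus thinned to 1000 UMIs the shares were 46.8% and 48.8% of members against 7.43% and 4.93% of mesenchymal-marked nuclei. Knl1, a scaffold of the kinetochore, was at 390 and 482 CPM, and Kif11, the motor that pushes spindle poles apart, at 309 CPM in each library. Cenpp, a centromere protein, was at 529 CPM in WT and 818 CPM in HIF-1α KO, but its locus overlaps Aspn, Ecm2, Ippk, Ogn and Omd on the other strand. Ccnf, the F-box protein cyclin F, stood the other way, at 224 CPM in WT and 152 CPM in HIF-1α KO. Of the 10 genes, 0 differed by 2-fold between the libraries in either direction within the members.

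The genes of the cell cycle outside the rule were read from 10 lists with 197 genes, of which 168 had at least 20 UMIs in the members of each library. Of these 168 genes, 129 or 76.8% were at least 2-fold higher in cycling nuclei than in all other nuclei of the same library, in both libraries, and 0 were 2-fold lower. Among all 7709 genes with that count, 390 or 5.06% were that much higher and 225 or 2.92% that much lower. The nuclei were selected on genes of the same program, so these counts describe the members and test nothing. Across all genes the median log2 ratio of members over other nuclei was 0.09 in WT and 0.13 in HIF-1α KO.

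Genes that start and carry out DNA replication passed in part. Of 20 origin licensing genes, 12 had 20 UMIs in each library and 6 of them passed the 2-fold limit, led by Dbf4, which activates the kinase that fires origins. Dbf4 was at 119 CPM in WT members against 26.1 CPM in other nuclei, and at 124 against 17.1 CPM in HIF-1α KO. The helicase subunit Mcm6 did not reach 20 UMIs in WT members and is not among the 12. It was at 11.3 CPM in WT members against 14.3 CPM in other WT nuclei, and at 20.5 against 8.24 CPM in HIF-1α KO. Mcm7, which had the counts but did not pass, was at 17.0 against 17.98 CPM in WT and at 14.2 against 6.87 CPM in HIF-1α KO. Of 39 replication fork genes, 28 had the counts and 14 passed. Clspn, which links the fork to the checkpoint, was at 65.1 against 17.7 CPM in WT and 75 against 6.0 CPM in HIF-1α KO. Pcna, the sliding clamp of DNA polymerase, did not pass, with 21.2 CPM in WT members against 17.8 CPM outside and 21.6 against 13.8 CPM in HIF-1α KO.

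Genes of homologous recombination and crosslink repair were higher throughout most of their list. Of 18 such genes, 17 had the counts and 16 passed, with list medians of the log2 ratio of 2.04 in WT and 3.47 in HIF-1α KO. Rad54l, a motor protein of homologous recombination, was at 60.9 CPM in WT members against 10.6 CPM outside, and at 53.4 against 3.71 CPM in HIF-1α KO. Polq, the polymerase of end joining at short homologies, was at 76.5 and 85.2 CPM in members against 13.9 and 7.0 CPM outside. Fancc did not pass, with log2 ratios of 0.76 in WT and 1.06 in HIF-1α KO.

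Of 17 cyclins, their kinases and regulators, 15 had the counts and 8 passed: Cdc25b, Cdc25c, Ccna2, Ccnb1, Ccnb2, Cdk1, Wee1 and Pkmyt1. Cdc25c, the phosphatase that switches on Cdk1 at the start of mitosis, had the largest ratios of the list, 60.9 against 4.90 CPM in WT and 59.7 against 2.11 CPM in HIF-1α KO. Ccnb1, the mitotic cyclin B1, was at 44.6 against 7.26 CPM in WT and 38.1 against 2.75 CPM in HIF-1α KO. Ccnd1 and Ccnd2, which drive G1, had log2 ratios between -0.54 and -0.09 in the libraries. Of 11 transcription factors of the cycle, 10 had the counts and 6 passed. Foxm1, which activates mitotic genes, was at 45.3 against 6.25 CPM in WT and 44.9 against 1.88 CPM in HIF-1α KO. E2f7 and E2f8, repressors that end the E2F wave, and the MuvB subunits Lin54 and Lin9 passed too, whereas E2f1 did not reach 20 UMIs in either library.

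The lists of mitosis were higher almost in full. Of 34 kinetochore and checkpoint genes, 31 had the counts and 28 passed, of 21 spindle genes 21 and 20, of 11 cytokinesis genes 11 and 11, of 19 chromosome structure genes 16 and 14, and of 7 genes of mitotic exit 7 and 6. Kif14, a kinesin of the midbody, was at 126 CPM in WT members against 15.7 CPM outside, and at 150 against 4.71 CPM in HIF-1α KO. Ttk, the kinase that starts the spindle checkpoint, was at 121 against 17.3 CPM in WT and 149 against 6.0 CPM in HIF-1α KO. Racgap1, which centres the contractile ring, was at 210 against 24.2 CPM and 211 against 9.02 CPM. Mki67, the usual histological mark of proliferation, was at 305 CPM (277 to 335) in WT members and 336 CPM (310 to 365) in HIF-1α KO members, against 59.3 and 36.4 CPM outside. Cenpe, the motor that brings chromosomes to the spindle equator, was at 375 CPM (344 to 409) and 409 CPM (379 to 439), against 53.7 and 28.3 CPM. Numa1, which anchors spindle poles but also has a role in interphase nuclei, was the spindle gene that did not pass, at log2 ratios of 0.86 and 0.96. The median ratios were larger in HIF-1α KO in each of the 10 lists, and the other HIF-1α KO nuclei held less of these genes. All 197 summed to 5227 CPM in other WT nuclei and 3273 CPM in other HIF-1α KO nuclei, but to 16256 and 18340 CPM in members. In mesenchymal-marked nuclei they summed to 5252 CPM in WT and 4305 CPM in HIF-1α KO.

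**Figure D1:**
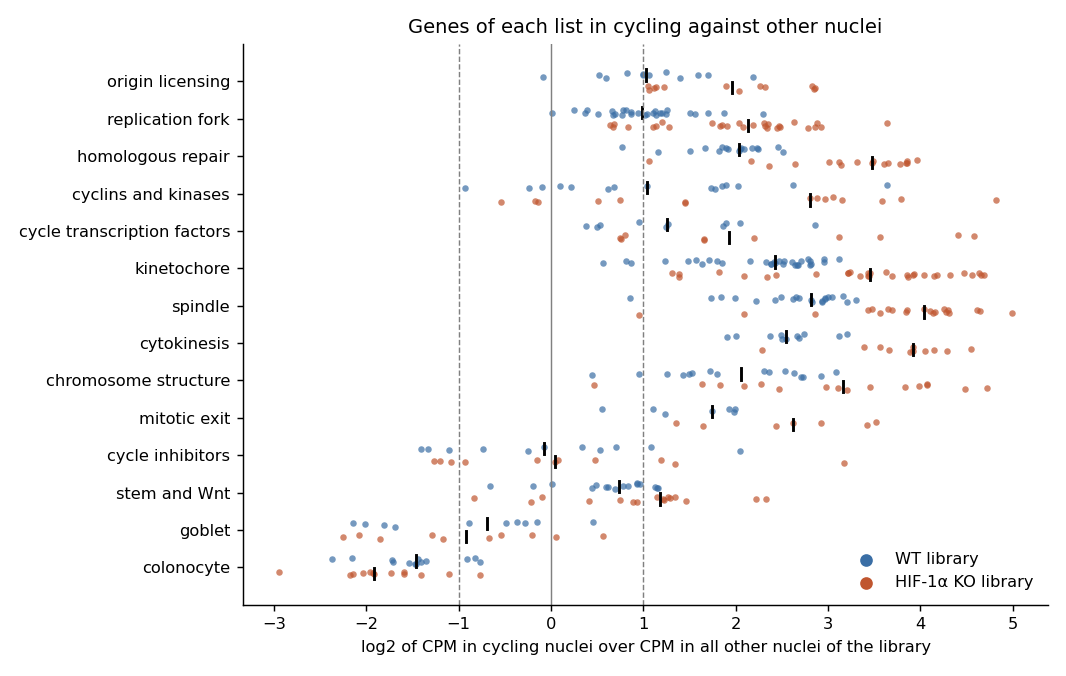
Each point is 1 gene with at least 20 UMIs in the members of each library, placed at the log2 ratio of its CPM in cycling nuclei over its CPM in all other nuclei, with WT in blue and HIF-1α KO in orange. Black bars are list medians and dashed lines mark 2-fold; the spindle list has medians of 2.81 in WT and 4.04 in HIF-1α KO, and the colonocyte list of -1.46 and -1.92.

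Inhibitors of the cycle were mixed. Of 17 genes, 11 had the counts, 2 were higher and 3 lower. Lower in members were Cdkn1a, the p53-induced inhibitor p21, with log2 ratios of -1.10 in WT and -1.08 in HIF-1α KO, the atypical cyclin Ccng2 (-1.33 and -1.27) and the antiproliferative gene Btg1 (-1.41 and -1.20). Higher were Cdkn2c, an inhibitor of the G1 kinases, and Rbl1, the p107 relative of the retinoblastoma protein, at 120 CPM in WT members and 137 CPM in HIF-1α KO members against 56.3 and 54.0 CPM outside.

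The position of each nucleus in the cycle was described with 59 S genes (licensing and fork) and 92 G2/M genes (the 5 mitotic lists), none of them in the rule. Per member nucleus, G2/M genes took a median of 1.04% of UMIs in WT and 1.17% in HIF-1α KO, and S genes 0.196% and 0.204%. G2/M UMIs outweighed S UMIs in nearly every member: S genes had the larger share in 12 of 408 WT nuclei and 10 of 297 HIF-1α KO nuclei. The members were chosen on genes of mitosis and the G2/M list is the longer, so this balance describes the choice and tests nothing. It gives no share of phases among the dividing cells of the colon. No S UMI was found in 12 WT and 2 HIF-1α KO members, and 0 members lacked a G2/M UMI. Summed over members, S genes had 3397 UMIs in WT and 4731 in HIF-1α KO, and G2/M genes 14943 and 20557. The log2 ratio of S over G2/M UMIs was -2.14 in WT and -2.12 in HIF-1α KO, a difference of 0.02 (interval -0.05 to 0.09), while in all other nuclei it was -0.91 and -0.97.

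**Figure D2:**
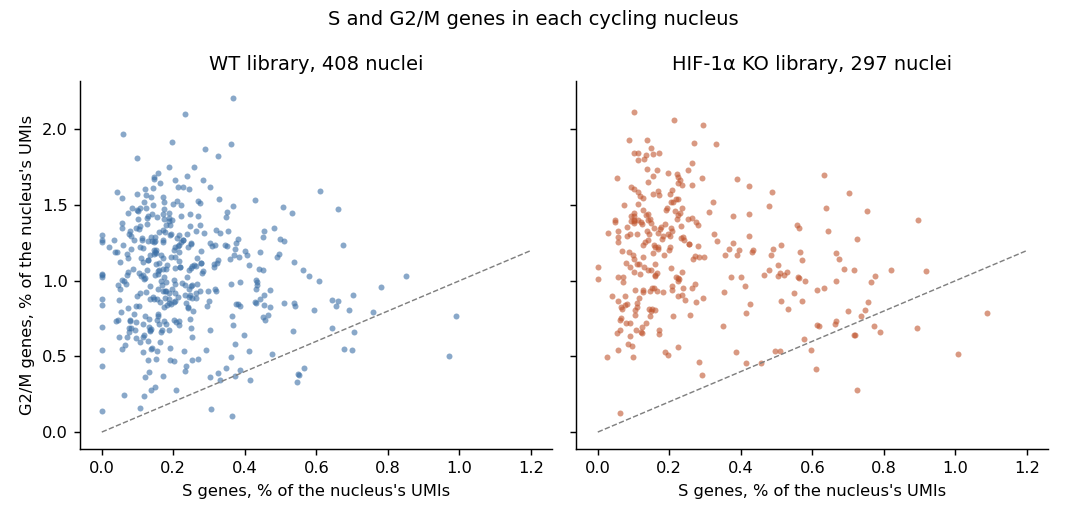
Each point is 1 cycling nucleus, placed by the share of its UMIs on 59 S genes (horizontal) and on 92 G2/M genes (vertical), with WT on the left and HIF-1α KO on the right. The dashed line marks equal shares, and 12 WT and 10 HIF-1α KO nuclei lie below it.

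Members also varied with the number of rule genes found. That number is part of the rule, so the classes are a description and test nothing. WT members with 4 to 5, 6 to 7 and 8 to 10 of the genes numbered 158, 143 and 107, and their log2 ratios of S over G2/M were -1.76, -1.98 and -2.51. In HIF-1α KO the numbers were 53, 83 and 161 and the ratios -1.06, -1.80 and -2.38. The ratio was thus higher in HIF-1α KO in each class, although the ratios summed over all members were close. The class with 8 to 10 of the genes, where the ratio was lowest, held 26.2% of WT and 54.2% of HIF-1α KO members. G2/M genes, which act in the same phase as the rule genes, were at 8685 CPM in the class with the fewest and 11997 CPM in that with the most in WT, and at 8777 and 12575 CPM in HIF-1α KO. S genes were at 2566 and 2101 CPM in the same classes in WT, and at 4218 and 2415 CPM in HIF-1α KO. Median depth ran from 2089 to 4658 UMIs in WT and from 2622 to 6834 UMIs in HIF-1α KO, so the classes differ in depth as well. The immune list ran from 520 to 119 CPM in WT and from 1089 to 269 CPM in HIF-1α KO, the goblet list from 2181 to 1562 and from 2991 to 2195 CPM, and the colonocyte list from 2032 to 1533 and from 2651 to 1952 CPM. Their part in the S over G2/M ratios was not tested.

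Outside the 10 lists, 261 further genes were at least 2-fold higher in members in both libraries. Against the stem-marked nuclei described below, 227 of the 7709 genes (2.94%) were at least 2-fold higher in both libraries, and 215 of these were among the 390. The gene with the largest pooled ratio outside the lists was Prr11, a regulator of late cell cycle, at 86.4 CPM in WT members against 8.78 CPM outside and 118 against 3.52 CPM in HIF-1α KO. Pif1, a helicase, was at 61.6 against 8.19 CPM and 110 against 3.25 CPM. Spag5, a spindle protein, was at 142 against 15.7 CPM and 141 against 5.91 CPM. Neil3, a DNA glycosylase, was at 163 against 25.7 CPM and 265 against 10.8 CPM. Iqgap3, Depdc1a, Depdc1b, Shcbp1, Parpbp, Ankle1, Melk, Efcab11 and the noncoding Lockd also belonged to the 15 largest. Kifc5b, at 106 and 93.2 CPM in members, is a near copy of Kifc1, and Gm48646 lies within Anln on the same strand, so their reads may be shared. Of the other kind, March3, a ubiquitin ligase, was lowest, at 73.6 against 340.5 CPM in WT and 102 against 769 CPM in HIF-1α KO, followed by Cntnap2, Tafa1, Slc25a20, a carrier of fatty acids into mitochondria, and Nlrp9b, an epithelial inflammasome sensor.

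Because many mitotic genes are switched on through a shared promoter element, the RefSeq promoters of the lists (GRCm38.p6, 250 bases before to 50 after each start, 27025 gene symbols) were searched for 3 motifs on both strands. The cell cycle homology region (CHR), to which the MuvB complex binds, was searched as TTTGAA, the CCAAT box, to which NF-Y binds, as CCAAT, and the E2F site as TTTGGCGC or TTTCCCGC. No motif holds the letters of another, though neighbouring matches can share an end letter. A gene with several annotated starts was counted once, as holding a motif if any of its promoters did. The numbers of promoters below are therefore numbers of genes. The CHR letters were in 20.2% of all promoters and in 14.5% of those of the genes tested, but in 48 of 78 promoters of the G2/M genes (61.5%) and in 8 of 46 of the S genes (17.4%). By list they were in 11 of 13 chromosome structure, 15 of 20 spindle, 6 of 8 cytokinesis and 13 of 30 kinetochore promoters. The same letters were in 3 of 7 mitotic exit, 4 of 8 transcription factor and 5 of 15 licensing promoters. Cyclins and kinases (2 of 10) and repair (3 of 15) were near the share of all promoters. Fork promoters held the letters in 3 of 31 and stem and Wnt promoters in 0 of 15. E2F letters were in 1.80% of all promoters and 3.87% of those of the genes tested. They were in 14 of 46 of the S genes (30.4%) and in 9 of 78 of the G2/M genes (11.5%). CCAAT was in 41.1% of all promoters, 42.9% of those of the genes tested, 56.5% of the S genes and 70.5% of the G2/M genes. The genes higher in members had the CHR letters in 118 of 316 promoters (37.3%), and those outside every list in 65 of 210 (31.0%). A match of 6 letters is a description of the sequence and not a bound site.

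The bases before the start of 4 mitotic genes with CHR letters and of 2 replication genes without them are printed here to show the arrangement, read along the gene from 5′ to 3′ with CHR, CCAAT and E2F letters in capitals. In Top2a (chr11:99024190-99024439, minus strand) the CHR letters begin 179 and 23 bases before the start, with CCAAT on 6 sites. In Ccnf (chr17:24251410-24251659, minus strand) they begin 130 and 14 bases before it, in Mki67 (chr7:135716380-135716629, minus strand) 116 and 98, and in Kif11 (chr19:37376132-37376381, plus strand) 19. Mcm6 (chr1:128359706-128359955, minus strand) has E2F letters 110 and 47 bases before the start, and Pcna (chr2:132253181-132253430, minus strand) has a single CCAAT.
Top2a: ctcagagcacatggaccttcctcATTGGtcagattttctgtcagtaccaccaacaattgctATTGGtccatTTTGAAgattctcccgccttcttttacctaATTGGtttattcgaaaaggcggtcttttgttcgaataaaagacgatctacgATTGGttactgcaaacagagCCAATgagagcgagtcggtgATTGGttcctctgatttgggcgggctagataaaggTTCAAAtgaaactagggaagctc
Ccnf: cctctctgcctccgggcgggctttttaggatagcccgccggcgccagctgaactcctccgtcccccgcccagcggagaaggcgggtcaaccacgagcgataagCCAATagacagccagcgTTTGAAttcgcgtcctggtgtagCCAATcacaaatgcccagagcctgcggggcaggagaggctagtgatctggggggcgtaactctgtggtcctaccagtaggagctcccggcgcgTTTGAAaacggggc
Mki67: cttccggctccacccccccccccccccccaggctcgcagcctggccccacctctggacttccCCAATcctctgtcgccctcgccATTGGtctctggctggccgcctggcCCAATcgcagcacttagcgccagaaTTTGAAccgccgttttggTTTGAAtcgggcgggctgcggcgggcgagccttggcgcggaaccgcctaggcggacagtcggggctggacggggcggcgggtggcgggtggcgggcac
Kif11: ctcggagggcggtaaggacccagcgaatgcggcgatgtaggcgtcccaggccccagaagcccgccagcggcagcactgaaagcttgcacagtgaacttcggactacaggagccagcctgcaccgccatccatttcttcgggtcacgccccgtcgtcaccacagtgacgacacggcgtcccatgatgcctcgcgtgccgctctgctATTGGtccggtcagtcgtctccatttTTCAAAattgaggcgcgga
Mcm6: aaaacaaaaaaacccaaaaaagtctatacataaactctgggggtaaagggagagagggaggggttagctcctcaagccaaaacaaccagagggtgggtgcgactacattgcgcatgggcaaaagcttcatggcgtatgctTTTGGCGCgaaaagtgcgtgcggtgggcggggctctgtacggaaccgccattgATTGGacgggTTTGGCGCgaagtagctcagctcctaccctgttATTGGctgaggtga
Pcna: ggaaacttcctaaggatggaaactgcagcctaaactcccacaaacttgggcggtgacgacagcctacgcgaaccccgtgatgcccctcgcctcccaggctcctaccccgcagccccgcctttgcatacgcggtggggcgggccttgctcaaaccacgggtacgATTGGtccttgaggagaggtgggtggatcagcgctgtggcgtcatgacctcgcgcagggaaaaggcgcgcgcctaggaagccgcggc

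In Top2a, Kif11 and Ccnf the CCAAT letters nearest to the proximal CHR letters lie upstream of them, and CHR and CCAAT letters occurred together in 38 of 78 G2/M promoters (48.7%) against 8.97% of all promoters. Promoters were matched for 9 of the 10 rule genes, all but Tpx2, and 6 of these held the CHR letters in the whole window.

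The label of crypt nuclei was checked against marker lists. A nucleus was called marked where at least 3 genes of a list had a UMI and the list held at least 0.2% of its UMIs, except that the epithelial list needed 3 genes only and Cftr with Htr4 needed both. In all, 397 of 408 WT members (97.3%, interval 95.2 to 98.6) and 297 of 297 HIF-1α KO members had 3 epithelial genes, but so did 77.9% and 94.7% of the mesenchymal-marked nuclei, so this mark does not set the members apart. By the stem list 55.1% of WT members (50.2 to 60.04) and 51.9% of HIF-1α KO members (46.0 to 57.7) were stem-marked, against 19.3% and 17.0% of other nuclei and 10.1% and 5.73% of the mesenchymal-marked nuclei. Both Cftr and Htr4 were found in 65.2% and 75.8% of members, against 34.6% and 45.7% of other nuclei and 20.1% and 20.7% of mesenchymal-marked nuclei. These marks need UMIs of several genes and so favour deep nuclei. Members were the deeper class, with medians of 2951.5 and 4986 UMIs against 1975.5 and 4155 in other nuclei. The shares with these marks were not taken at a common depth. With the 95th percentile of the mesenchymal-marked nuclei as the limit, chosen after the values were seen, 36.8% of WT and 40.7% of HIF-1α KO members exceeded it for the stem list, 27.0% and 45.1% for Cftr and Htr4, 8.33% and 2.02% for the goblet list and 0.980% and 0.673% for the colonocyte list. For the epithelial list 10.05% of WT members and 3.37% of HIF-1α KO members exceeded it, fewer than the 20.8% and 17.98% of other nuclei and the 16.2% and 12.25% of stem-marked nuclei. Summed over members, the epithelial list was at 4540 CPM in WT and 4971 CPM in HIF-1α KO. Mesenchymal-marked nuclei held 2459 and 2731 CPM of it, and all other nuclei 4769 and 5887 CPM. The members are thus named crypt nuclei by their rule's label, and under 50% of them in each library exceeded the limit for any of these lists.

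The summed levels place members near the stem-marked nuclei outside the rule (862 in WT, 751 in HIF-1α KO). The 23 stem and Wnt genes summed to 4474 CPM (4364 to 4585) in WT members and 4056 CPM (3963 to 4151) in HIF-1α KO members. This compares with 5009 and 4819 CPM in stem-marked nuclei, which that list helped to choose, with 2775 and 2547 CPM in all other nuclei, and with 1935 and 1745 CPM in mesenchymal-marked nuclei. Lrig1, a brake on growth factor receptors in stem cells, was at 1174 CPM in WT and 888 CPM in HIF-1α KO members against 526 and 381 CPM in other nuclei. Ephb2, the receptor that keeps cells low in the crypt, was at 926 and 573 CPM against 424 and 310 CPM. Of the 16 stem and Wnt genes with the counts, Lrig1 and Axin2 were at least 2-fold higher in both libraries and 0 were lower. Cftr, the chloride channel of crypt secretion, was at 938 CPM (888 to 990.1) in WT and 799 CPM (758 to 842) in HIF-1α KO members, against 907 and 859 CPM in stem-marked nuclei and 600.1 and 439 CPM in all other nuclei. Htr4, a serotonin receptor, was at 761 CPM (716 to 808) and 1112 CPM (1064 to 1163).

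The goblet list summed to 1909 CPM in WT members and 2354.5 CPM in HIF-1α KO members, against 4151 and 5137 CPM in other nuclei and 1673 and 2353 CPM in mesenchymal-marked nuclei. The level in members was thus close to the level in a cell type that should lack it. Of its 12 genes, 10 had the counts, 0 were higher and 4 lower (Fcgbp, Clca1, Zg16 and Bcas1), while Creb3l1 had log2 ratios of 0.46 and 0.57. Muc2, the secreted mucin, was at 598 CPM (558 to 639) in WT and 574 CPM (539.5 to 611) in HIF-1α KO members, against 498 and 628 CPM in mesenchymal-marked nuclei. The colonocyte list summed to 1678 and 2085 CPM in members, below the 2371 and 2512 CPM of mesenchymal-marked nuclei, and 10 of 13 genes with the counts were lower, among them Slc26a3, the chloride and bicarbonate exchanger, and Ceacam20. The enteroendocrine list marked 0 WT members (upper bound 0.900%) and 4 HIF-1α KO members. For the secretory progenitor genes, 2 of 8 had the counts and 0 passed.

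**Figure D3:**
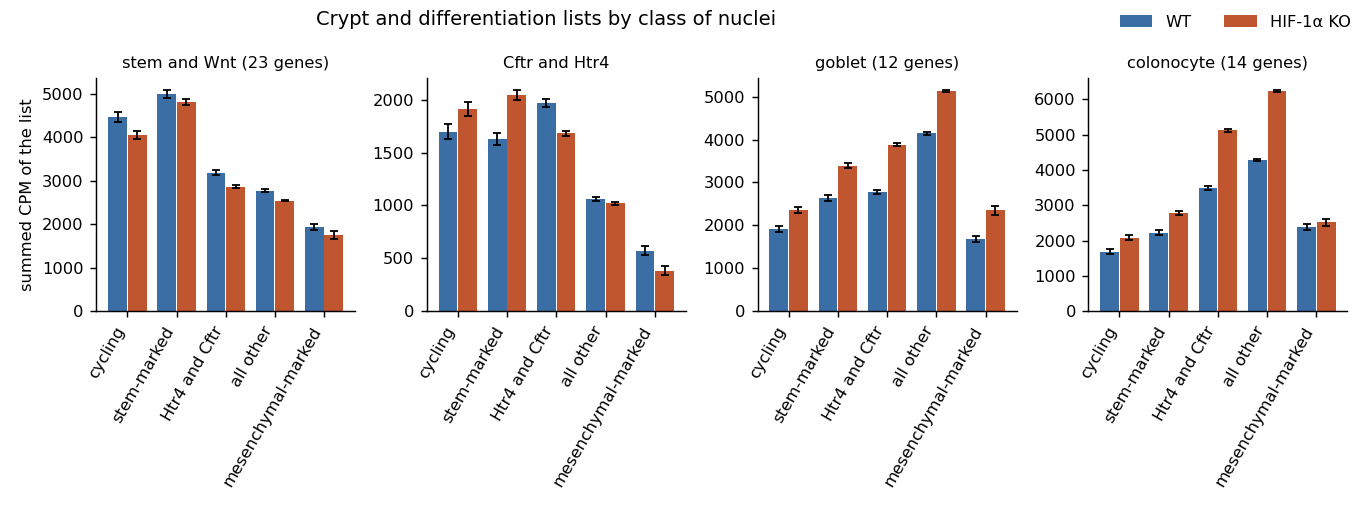
Bars give the summed CPM of each list (vertical axis) in cycling nuclei, in stem-marked nuclei, in nuclei with Htr4 and Cftr, in all other nuclei and in mesenchymal-marked nuclei, with exact 95% intervals for counting error. Cycling nuclei have 4474 and 4056 CPM of the stem and Wnt list in WT and HIF-1α KO, next to the stem-marked nuclei, and the lowest colonocyte bars.

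Some members carried marks of other lineages. The immune list marked 11 WT members (2.70%, interval 1.35 to 4.77) and 17 HIF-1α KO members (5.72%, 3.37 to 9.01), the mesenchymal list 5 and 2, the endothelial list 4 and 2, and the neural list 0 and 1. Together 19 WT members (4.66%) and 22 HIF-1α KO members (7.41%) carried such a mark. Immune-marked members, chosen by the immune list, had 1723 and 2704 CPM of the epithelial list against 4604 and 5111 CPM in members without any such mark. Mesenchymal-marked nuclei held 2459 and 2731 CPM of it. The stem and Wnt list was at 1283 and 1423 CPM in immune-marked members, against 1935 and 1745 CPM in mesenchymal-marked nuclei. Neither list thus bears out the name crypt nuclei for the immune-marked members. Among the genes that gave the mark in the HIF-1α KO library, Ikzf1, a lymphocyte factor, had 115 UMIs in 16 of the 17 immune-marked members. It had 11 UMIs in the 275 members without a mark. The B-cell gene Ms4a1 had 19 UMIs in 7 of the 17. Of other lymphocyte genes in the list, Cd79a had 2 UMIs, Mzb1 0, Jchain 1, Cd3e 1, Skap1 18 in 2 nuclei and Themis 10 in 1. With all nuclei of these marks left out, the share of cycling nuclei was 9.69% in WT and 6.64% in HIF-1α KO, a log2 ratio of -0.55.

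Between the genotypes, levels within cycling nuclei were compared over 7724 genes with at least 50 UMIs in members of both libraries together. In HIF-1α KO members 260 genes (3.37%) were at least 2-fold higher and 136 (1.76%) at least 2-fold lower, with a median log2 ratio of 0.11 over all genes. With that median set to 0, the counts were 183 and 189, so the balance of higher and lower calls rests on the scaling. Of the 260 and 136 genes, 67 and 57 were past 2-fold in the same direction in all other nuclei too. Among all 7724 genes, 116 were at least 2-fold higher and 252 at least 2-fold lower in other HIF-1α KO nuclei. The members of the 10 cycle lists gave 4 higher (2.37%) and 2 lower (1.18%) of 169, near or below the share over all genes, and their median log2 ratio was 0.16. Among all other nuclei their median was -0.93. The other WT nuclei include more that missed the rule at 3 genes, 83 against 9. Those with 4 or more genes but under 0.2% of UMIs numbered 78 in WT and 86 in HIF-1α KO. In mesenchymal-marked nuclei the 197 cycle genes also summed to less in HIF-1α KO, 4305 CPM against 5252 CPM in WT. The part of the nuclei near the limits, or of this level, in the -0.93 was not tested.

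Of the 4 higher cycle genes 3 are described here, with both lower ones. E2f7 was at 25.5 CPM (17.9 to 35.3) in WT and 51.7 CPM (41.6 to 63.5) in HIF-1α KO members, Mybl1, a Myb factor, at 24.8 (17.3 to 34.5) and 55.1 (44.7 to 67.2), and Aurkb, the kinase of the chromosomal passenger complex, at 18.4 (12.03 to 27.0) and 39.8 (31.0 to 50.2). Without immune, mesenchymal, endothelial and neural-marked members the log2 ratio of Mybl1 was 0.43 in place of 1.15, and 1 nucleus held 15.5% of its HIF-1α KO UMIs. Lower were the cyclins D, Ccnd1 at 24.1 (16.7 to 33.6) and 11.4 (6.94 to 17.6) CPM and Ccnd2 at 147 (128 to 169) and 67.0 (55.5 to 80.3) CPM. Both were lower in other HIF-1α KO nuclei as well, by log2 ratios of -1.18 and -0.69. Among inhibitors, Cdkn3, a phosphatase of cyclin-dependent kinases, was at 12.04 CPM (7.01 to 19.3) in WT and 42.6 CPM (33.5 to 53.4) in HIF-1α KO members, a log2 ratio of 1.82 against -0.42 in other nuclei. Its WT level rests on 17 UMIs in 14 nuclei.

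Among stem genes, Lgr5, the R-spondin receptor of crypt base stem cells, and Smoc2, a matricellular protein of the same cells, were past 2-fold in HIF-1α KO members. Lgr5 had 24 UMIs in 18 WT members and 72 UMIs in 31 HIF-1α KO members, or 17.0 CPM (10.9 to 25.3) and 40.9 CPM (32.0 to 51.5), a log2 ratio of 1.27 against -0.28 in other nuclei. A single nucleus held 25% of these UMIs in WT, and in HIF-1α KO 15.3%. Smoc2 had 109 UMIs in 55 members and 292 UMIs in 105, or 77.2 CPM (63.4 to 93.1) and 166 CPM (147 to 186), a log2 ratio of 1.10 against -0.18. In stem-marked nuclei Lgr5 was at 36.5 and 32.5 CPM and Smoc2 at 124 and 168 CPM, so HIF-1α KO members lay close to them and WT members below. With each nucleus at 1000 UMIs, Lgr5 had a UMI in 1.72% of WT members, no more than the 1.99% of mesenchymal-marked nuclei, and in 3.70% of HIF-1α KO members against 0.897%. Smoc2 had one in 5.64% of WT members and 14.1% of HIF-1α KO members. Mesenchymal-marked nuclei are no background for Smoc2, since they held 66.4 CPM of it in WT and 61.7 CPM in HIF-1α KO against 40.3 and 35.6 CPM in all other nuclei. The stem-marked nuclei were chosen with stem genes, so their levels of Lgr5 and Smoc2 are a reference only. Axin2, a direct Wnt target, was at 35.4 CPM in WT and 21.6 CPM in HIF-1α KO, a log2 ratio of -0.71, Ephb2 had a ratio of -0.69, and the list's median was 0.05.

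Other genes differed between genotypes in one class of nuclei more than in the other. Nos2, the inducible nitric oxide synthase, was at 39.7 CPM (30.0 to 51.5) in WT and 51.1 CPM (41.1 to 62.9) in HIF-1α KO members, a log2 ratio of 0.37, while in other nuclei it was at 18.5 and 70.8 CPM, a log2 ratio of 1.94. Its WT count rests on 18 nuclei, 1 of which held 13 of the 56 UMIs. Cep112, a centrosomal protein, was at 17.7 and 59.7 CPM in members against 17.1 and 7.69 CPM in other nuclei. Pecam1, an endothelial adhesion protein, was at 13.5 and 51.1 CPM, and 49 of its 90 HIF-1α KO UMIs came from 1 nucleus. Flt1 and Ptprb, likewise endothelial, had 96.6% and 83.3% of their HIF-1α KO UMIs in 1 nucleus. The genes with the largest ratios in members included Tnfsf12, a TNF-family cytokine, with 5 and 45 UMIs, and the uncharacterized Gm20539 (3 and 47), Gm36975 (10 and 88) and Pard3bos1 (7 and 55), and these were higher in other HIF-1α KO nuclei as well, by log2 ratios of 1.16 to 2.72. Those with the smallest ratios included Hsph1, a chaperone, at 29.0 and 6.82 CPM, and Gm10801, Zbtb16 and Meis2. For Meis2 and Prkg1, genes that are abundant in mesenchymal-marked nuclei (683 and 1452 CPM in WT), levels in members were 35.4 and 8.52 CPM and 72.2 and 18.2 CPM. The mesenchymal list as a whole summed to 370 and 213 CPM in members, and its part in these values was not tested.

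**Figure D4:**
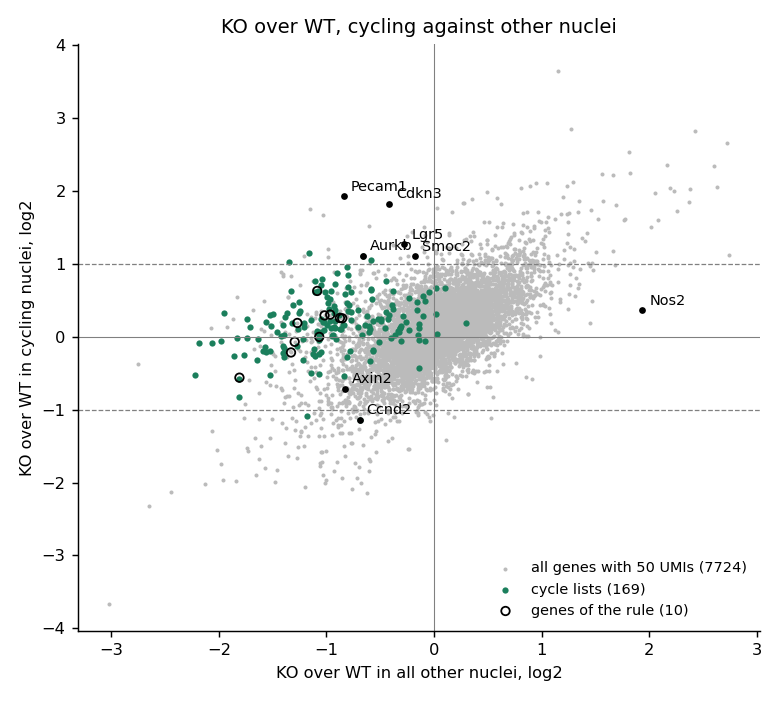
Each point is 1 of 7724 genes, placed by the log2 ratio of HIF-1α KO over WT in all other nuclei (horizontal) and in cycling nuclei (vertical), with the 169 cycle list genes in green, the 10 genes of the rule circled and dashed lines at 2-fold. The cycle genes lie left of 0 on the horizontal axis, with a median of -0.93, and around 0 on the vertical, with a median of 0.16.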

How the data were processed

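Frozen colon tissue, pooled from 3 animals per genotype, gave 1 single-nucleus library each. The authors ran Cell Ranger 7.0.1 on mm10 and deposited raw UMI counts per gene and nucleus. The setting for intronic reads is not given in the sources used here. Nuclei with 400 to 5000 detected genes and at most 10% mitochondrial UMIs were kept, as in the study's methods. No doublet caller was used here, only the gene ceiling.

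Members were taken by the rule of 10 genes, and summed UMIs were divided by all UMIs of the class to give CPM. Levels under 3 UMIs were set to 3 UMIs before a ratio. A gene was called past 2-fold, with no test, among genes with 20 UMIs in the members of each library, or 50 UMIs together for HIF-1α KO over WT. The 10 rule genes were left out of the counts of genes higher or lower in members and of the cycle lists. Intervals are Clopper-Pearson, Poisson or conditional exact intervals at 95%. Thinning drew 1000 UMIs per nucleus without replacement (seed 1). Genes were placed with GENCODE M21, which held 32158 of 32285 identifiers, and promoters came from RefSeq on GRCm38.p6. Python 3.11.15, numpy 2.4.6, pandas 2.3.3 and scipy 1.17.1 were used, and the fold rule was run on simulated counts. These were drawn independently for each gene, without clumping of UMIs in single nuclei, and with changes larger than 2-fold. They cannot show how the rule behaves at its limit in these data. The members, lists and tests were chosen with earlier results of these data known.

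Genes were named by a fixed rule: the rule genes, the 4 largest members-over-others ratios of each list, the 15 largest and 5 smallest ratios outside the lists, the 10 largest and 10 smallest HIF-1α KO over WT ratios, the 5 largest and 5 smallest differences of that ratio between members and other nuclei, and Lgr5, Cenpe, Muc2, Cftr, Htr4, Hif1a and Mki67. The other genes named, such as Mcm6, Mcm7, Pcna, Fancc, Ccnd1, Ccnd2, Numa1, Lrig1, Ephb2 and Cdkn1a, were chosen after their values were seen. They account for list members past or short of 2-fold or, for Mcm6, short of the minimum count. Sequences of Mcm6 and Pcna were chosen as a contrast. Some results are not reported here.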

Additional observations from a re-analysis of the deposited data

How the results depend on the processing

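No paired analysis was possible because each genotype has 1 library, and for the same reason no replicate could be left out. Some alternatives were chosen after seeing the data: leaving out nuclei marked by another lineage, and the summed UMIs of the rule genes. The share of cycling nuclei was lower in HIF-1α KO under each of 11 alternatives, although with at least 5 rule genes the interval (-0.41 to 0.06) includes 0. Its log2 ratio moved outside the main interval with at least 3 rule genes (-0.63), with at least 5 (-0.17) and for UMIs of the rule genes over all nuclei (-0.63).

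Genes higher in cycling nuclei numbered 390, but 258 with at least 50 UMIs in each library, 156 after thinning and 227 against stem-marked nuclei, and cycle genes numbered 129 but 63 after thinning; fewer genes reach the minimum count at those settings, except against stem-marked nuclei, where the 7709 genes tested stayed. The genes higher in KO cycling nuclei numbered 260 and the genes lower in KO cycling nuclei 136. With 100 UMIs they numbered 124 and 53, with 1 UMI in each library 1036 and 858, and after thinning 82 and 38. Relative to all other nuclei 40 were lower, 22 of them among the 136, and 304 were higher, 61 of them among the 260.

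The difference in S over G2/M UMIs was 0.18 after the level in mesenchymal-marked nuclei was subtracted, which lies outside the interval of the main value. After thinning, the epithelial share of cycling nuclei, WT, was 73.5%, and the epithelial share of cycling nuclei, KO, was 80.1%; with 2 epithelial genes the WT value was 99.5%. Of 150 named genes, 6 with a 2-fold difference between genotypes reversed relative to all other nuclei, Pard3bos1 (-0.065), Gm19461 (-0.25), Gm48099 (0.33), Zbtb16 (0.31), Tmem267 (0.11) and Gm16599 (-1.63), since the ratio in other nuclei was larger in size. The cause of the other moves was not tested. Depth limits each value to the UMIs found in 705 member nuclei, and no difference between genotypes has a replicate check.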
